A study of Mus musculus with 12 samples.

Results

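A set of 10 genes widely used to mark stem-like cells of breast tumours (the members) was followed through the RNA of a mouse metaplastic breast tumour line. They were the rows of the deposited expected-count table whose gene name was Cd44, Cd24a, Prom1, Thy1, Ly6a, Procr, Aldh1a1, Aldh1a3, Kit or Ngfr. All 10 of the 10 names were found among 55492 features. Of the 10, 8 passed the filter on low counts and were tested among 15052 genes, and Thy1 and Kit did not pass.

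The 12 libraries came from CCN6KOT, a primary breast cancer line of the spindle metaplastic condition, and fell into 4 groups of 3. DNTCF4_EZH2 and DNTCF4_SET cells carried the dominant negative construct DNTCF4 with an added rescue construct, EZH2 or SET. DNTCF4 cells carried it with a vector in place of the rescue construct, as far as their titles say, and Vector cells carried a control lentivirus. Every group, the controls included, received lentivirus and was selected with puromycin. EZH2 is the histone H3 lysine 27 methyltransferase of Polycomb repressive complex PRC2, and TCF4, the protein of Tcf7l2, binds DNA and recruits beta-catenin to Wnt target genes. The labels expand neither SET nor the term PPGS in the Vector titles. They name no promoter for the constructs and no clone, and nothing in them says that replicates were grown apart, so each p-value speaks of the spread among these libraries alone, and that spread may be technical.

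Library totals lay between 23597545 and 33999982 counts. Counts on Ezh2 reached 449.9 ± 20.5 CPM in DNTCF4_EZH2 and 546 ± 33.1 CPM in DNTCF4_SET, against 65.4 ± 3.10 CPM in DNTCF4 (SD, n = 3 each). Tcf7l2 stood at 45.5 ± 1.77 CPM in DNTCF4_EZH2, 35.2 ± 2.68 CPM in DNTCF4_SET, 39.8 ± 2.41 CPM in DNTCF4 and 11.0 ± 2.48 CPM in Vector. CPM are counts scaled to library size with TMM factors. The line's label was checked against markers. Of 6 luminal markers Krt18 (229 to 255 CPM over the group means) and Krt8 (up to 87.8 CPM) were abundant, while Epcam and Cdh1 stood at 1.01 CPM or less. All 5 mesenchymal markers exceeded 1 CPM in every group, with Vim from 645 to 1025 CPM. Of 4 basal markers, Krt5 had at most 2 counts in a library and Krt14 at most 9, while Krt17 reached 131 and Trp63 reached 241. Of 8 leukocyte markers, the defining Ptprc had at most 16 counts in a library and Cd68 stood at 53.1 to 67.4 CPM over the group means.

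The members are read at the cell surface or by enzyme activity. In human breast tumours, cells high in CD44 and low in CD24, or with high aldehyde dehydrogenase activity, are enriched for cells that start tumours in mice. CD133, the protein of Prom1, marks stem-like cells of several tissues, and Sca-1 (Ly6a), CD90 (Thy1) and the protein C receptor (Procr) mark stem or progenitor fractions of the mouse mammary gland. KIT is carried by luminal progenitors, and the nerve growth factor receptor CD271 (Ngfr) by basal cells. These data measure RNA, not surface protein, and in a bulk sample fewer cells of a type and less RNA per cell cannot be told apart.

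The members spanned most of the range of expression of the tested genes. On levels per kilobase of exon, which allow genes to be compared, Cd24a averaged 99.8 CPM per kilobase over the 12 libraries, Procr 66.2, Ly6a 61.6 and Cd44 37.1. Cd24a lay above 97.3% of the tested genes, Procr above 95.6%, Ly6a above 95.2% and Cd44 above 90.8%. Aldh1a3 (0.904 CPM per kilobase) lay above 24.4% of them, Ngfr (0.654) above 20.6%, Aldh1a1 (0.115) above 4.89% and Prom1 (0.0301) above 0.562%. Thy1 and Kit averaged 0.00773 and 0.00821 CPM per kilobase.

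**Figure D1:**
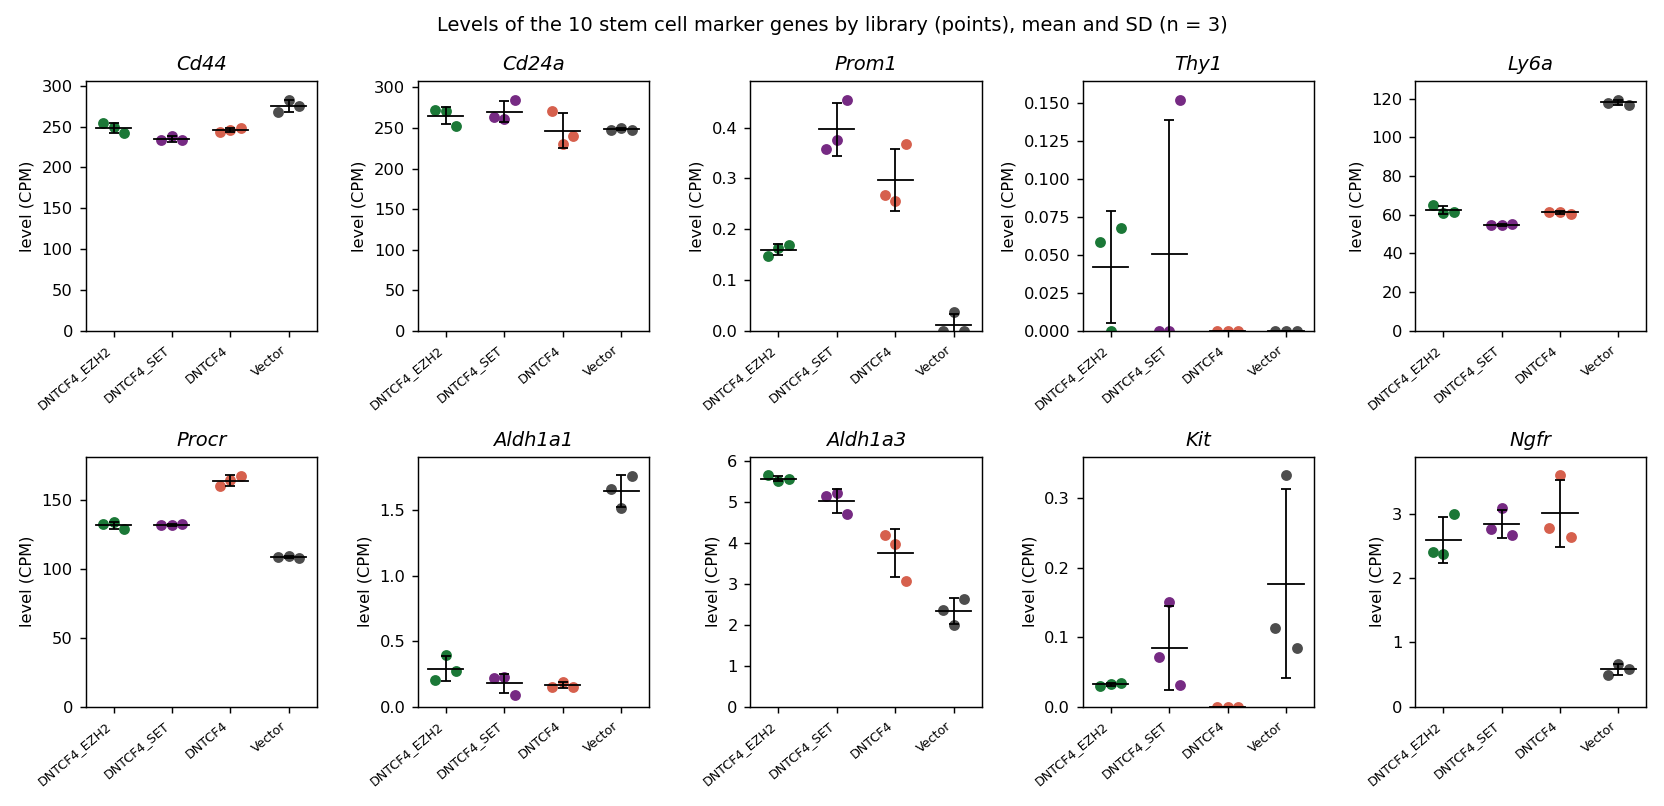
Level in CPM (vertical axes, each from 0 with its own scale) of the 10 members in each library (points), with the group mean and SD (black; n = 3), for DNTCF4_EZH2, DNTCF4_SET, DNTCF4 and Vector. Ly6a and Aldh1a1 were highest in Vector, Procr was highest in DNTCF4, and Aldh1a3 was highest in DNTCF4_EZH2.

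DNTCF4 against Vector asks how the markers differ in cells with the dominant negative construct. Of the 8 tested members 7 were called, against 57.5% of all 15052 genes. Aldh1a1 and Prom1 passed the filter only through groups where they were high, so this count does not set the members apart from other genes. Both averaged under 1 CPM over the 12 libraries (0.569 and 0.216). With a filter on a mean of at least 1 CPM they were left out, and every member kept apart from Cd24a was called, 5 in all. The share of all genes called under that filter is not given here, so this count does not set the members apart either. Prom1, Procr, Aldh1a3 and Ngfr were higher in DNTCF4 and Cd44, Ly6a and Aldh1a1 lower, against 29.5% of all genes called higher and 28.0% called lower. Of these, Ngfr, Aldh1a1 and Prom1 changed 2-fold or more. Of all 15052 genes tested, called or not, 11.7% were called and changed 2-fold or more. The filter limit on Aldh1a1 and Prom1 holds for this count as well. In each of the 7 called members the libraries of DNTCF4 and Vector did not overlap. That held for 59.3% of all genes, called or not. A called gene is more apt to show no overlap, so this is no separate support for the calls. The median log2 change was 0.29 over the 8 members and 0.01 over all genes. A call is an adjusted p under 0.05, from the quasi-likelihood test of edgeR adjusted over all genes by Benjamini and Hochberg.

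DNTCF4_EZH2 and DNTCF4_SET were each set against DNTCF4, to ask how the markers differ in cells with the added construct. With EZH2, 2 of 8 members were called (25.5% of all genes), Aldh1a3 higher (13.0%) and Procr lower (12.5%). With SET, 3 of 8 were called (26.0% of all genes), Aldh1a3 higher (12.7%) and Procr and Ly6a lower (13.3%). No called member changed 2-fold or more in either comparison, against 1.73% of all genes with EZH2 and 2.02% with SET. DNTCF4_EZH2 against DNTCF4_SET called 1 member, Ly6a (5.16% of all genes). Against Vector, the 7 members called in DNTCF4 were also called in DNTCF4_EZH2 (57.7% of all genes) and in DNTCF4_SET (58.0%), each in the direction it had in DNTCF4. These comparisons share the Vector or the DNTCF4 libraries.

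**Figure D2:**
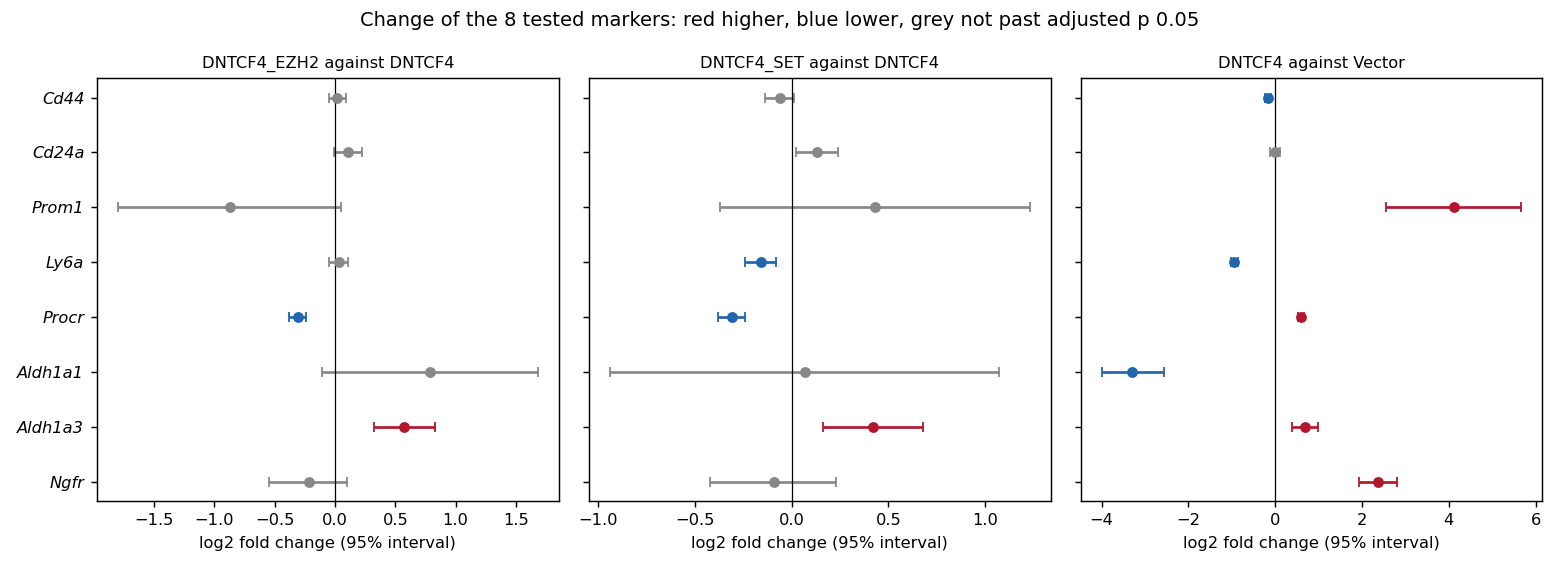
Log2 fold change (horizontal axes, a scale per panel) with its 95% interval for the 8 tested members in DNTCF4_EZH2 against DNTCF4, DNTCF4_SET against DNTCF4 and DNTCF4 against Vector, in red where called higher, blue where called lower and grey where not called. Procr and Aldh1a3 are called in all 3 panels, and Prom1 in the third panel rests on 1 count in Vector, so its size is not fixed by the data.

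Cd44 (ENSMUSG00000005087, GRCm38 chromosome 2, 102811141 to 102901665, minus strand) encodes a receptor for hyaluronan. It stood at 254, 249 and 242 CPM in DNTCF4_EZH2, at 233, 239 and 233 CPM in DNTCF4_SET, at 243, 246 and 248 CPM in DNTCF4, and at 268, 283 and 275 CPM in Vector. Every Vector library lay above the libraries of the other groups. Cd44 fell 1.12-fold in DNTCF4 (log2 -0.17, SE 0.033, adjusted p = 0.000529), 1.11-fold in DNTCF4_EZH2 (adjusted p = 0.00114) and 1.17-fold in DNTCF4_SET (adjusted p = 2.51e-05), each against Vector. DNTCF4_EZH2 differed from DNTCF4 by 0.02 on the log2 scale (95% interval -0.05 to 0.09), and DNTCF4_SET by -0.06 (-0.14 to 0.01, adjusted p = 0.169). In the order of levels, DNTCF4_EZH2 and DNTCF4 were therefore neighbours that did not differ beyond their spread.

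Cd24a (ENSMUSG00000047139, chromosome 10, 43578284 to 43584265, plus strand) encodes the mouse CD24 mucin-type sialoglycoprotein, and it was the tested member with no call in any comparison. Its levels were 272, 271 and 253 CPM in DNTCF4_EZH2, 264, 261 and 285 CPM in DNTCF4_SET, 270.3, 229.7 and 240.4 CPM in DNTCF4, and 248, 249.7 and 247 CPM in Vector. The groups overlapped, apart from DNTCF4_EZH2 and DNTCF4_SET lying above Vector. DNTCF4 against Vector gave a log2 change of -0.01 (95% interval -0.12 to 0.11). DNTCF4 replicate 1 was the highest of its group. Without it Cd24a was called higher against DNTCF4 in DNTCF4_EZH2 (log2 0.18, adjusted p = 0.00151) and in DNTCF4_SET (log2 0.20, adjusted p = 0.000467). With it kept the changes were 0.11 (adjusted p = 0.164) and 0.13 (adjusted p = 0.0891). This library stood apart beyond Cd24a. Chi-square per degree of freedom over genes, a measure of scatter beyond counting noise, was 19.0 and 12.2 against DNTCF4 replicates 2 and 3. It was 3.17 between those 2 replicates, and 14.9 between DNTCF4_EZH2 replicates 1 and 2. Every comparison with DNTCF4 uses this library.

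The Cd44 to Cd24a ratio is the RNA counterpart of the surface pair. Per kilobase, Cd24a exceeded Cd44 in every library. The log2 ratio of Cd44 to Cd24a was -1.49, -1.52 and -1.46 in DNTCF4_EZH2, -1.57, -1.52 and -1.68 in DNTCF4_SET, -1.55, -1.29 and -1.35 in DNTCF4, and -1.28, -1.21 and -1.24 in Vector. The ratio was highest in the 3 Vector libraries, by a narrow gap to DNTCF4 replicate 2, and DNTCF4 overlapped DNTCF4_EZH2 and DNTCF4_SET. It averaged -1.49 ± 0.030 in DNTCF4_EZH2, -1.59 ± 0.084 in DNTCF4_SET, -1.40 ± 0.13 in DNTCF4 and -1.24 ± 0.036 in Vector (SD, n = 3 each). No test was made of the ratio.

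**Figure D3:**
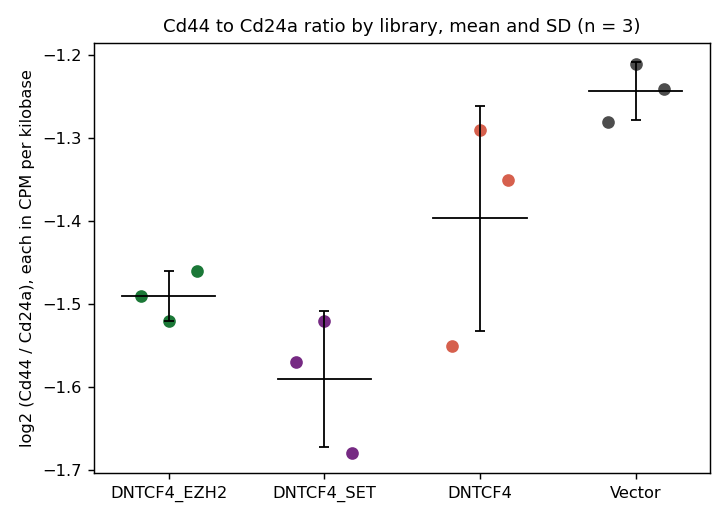
Log2 ratio of Cd44 to Cd24a, each in CPM per kilobase of exon (vertical axis, not from 0), in each library (points) with the group mean and SD (n = 3). The ratio lies between -1.28 and -1.21 in Vector, above all 9 libraries with DNTCF4, which lie between -1.68 and -1.29.

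Ly6a (ENSMUSG00000075602, chromosome 15, 74994877 to 74998031, minus strand) encodes Sca-1, a lipid-anchored surface protein of the Ly6 family. It stood at 64.9, 60.7 and 61.6 CPM in DNTCF4_EZH2, at 54.5, 54.8 and 55.5 CPM in DNTCF4_SET, at 61.6, 61.5 and 60.5 CPM in DNTCF4, and at 118, 119.6 and 117 CPM in Vector. Every library with DNTCF4 lay far below every Vector library, and DNTCF4_SET was the lowest group. Ly6a fell 1.93-fold in DNTCF4 against Vector (log2 -0.95, SE 0.037, adjusted p = 9.54e-12). In DNTCF4_SET it fell a further 1.11-fold against DNTCF4 (log2 -0.16, SE 0.038, adjusted p = 0.00695), a call lost when the 6 libraries compared were fitted alone (adjusted p = 0.0547). DNTCF4_EZH2 lay 0.03 from DNTCF4 (95% interval -0.05 to 0.11), so these groups did not differ beyond their spread. DNTCF4_EZH2 was higher than DNTCF4_SET by 0.18 on the log2 scale (adjusted p = 0.0104), and without DNTCF4_EZH2 replicate 1 that became 0.16 (adjusted p = 0.0621). Of the 50-base words in the Ly6a transcripts 19% also occur in other genes, chiefly Ly6c1, so part of its counts depends on how reads were shared out.

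The other Ly6 genes were followed with it. Of 13 listed, 5 passed the filter. In DNTCF4 against Vector 4 fell and Lypd1, named here after its value was seen, rose (adjusted p = 0.0461), with a median log2 change of -0.54 against 0.01 over all genes. Over all genes 28.0% were called lower and 29.5% higher. Ly6c1, a myeloid and endothelial surface antigen in mice, had 14.7 ± 0.836 CPM in DNTCF4 and 38.1 ± 1.15 CPM in Vector, a 2.58-fold fall (adjusted p = 4.96e-11). Of the 1297 50-base words of Ly6a, 195 also occur in Ly6c1, so counts of Ly6c1 too depend in part on how reads were shared out. Lynx1, which binds nicotinic receptors, fell 1.46-fold and Ly6e 1.38-fold. Against DNTCF4, Ly6c1 rose 1.81-fold in DNTCF4_EZH2 to 26.7 ± 0.720 CPM (adjusted p = 9.20e-08) and 1.32-fold in DNTCF4_SET to 19.5 ± 1.40 CPM (adjusted p = 0.000301). Lynx1 rose 1.29-fold with EZH2 (adjusted p = 2.79e-05) and 1.20-fold with SET (adjusted p = 0.000634). They were the genes called with SET, and with EZH2 Ly6e rose as well by 1.15-fold, a call lost without DNTCF4_EZH2 replicate 1 (adjusted p = 0.0771), replicate 2 (adjusted p = 0.0595) or replicate 3 (adjusted p = 0.0601). The list's median was 0.37 with EZH2 and 0.26 with SET, against -0.00 over all genes in each. Over all genes 13.0% were called higher with EZH2 and 12.7% with SET. Ly6a itself was not called higher in either. The 8 leukocyte markers summed to 66.8 to 71.9 CPM in DNTCF4_EZH2, 59.8 to 68.6 in DNTCF4_SET, 45.0 to 66.3 in DNTCF4 and 53.7 to 58.0 in Vector, nearly all of it Cd68.

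Thy1 (ENSMUSG00000032011, chromosome 9, 44043384 to 44048579, plus strand), a lipid-anchored glycoprotein of T cells, neurons and fibroblasts, was at or near 0. It had 2, 0 and 2 counts in DNTCF4_EZH2, 0, 0 and 5 in DNTCF4_SET, and 0 in all libraries of DNTCF4 and of Vector. A count of 0 over the 3 libraries allows up to 0.0353 CPM in DNTCF4 and 0.0388 CPM in Vector, from a floor of 3 counts over the group that covers counting error only. All 5 counts of DNTCF4_SET were in replicate 3. Set against that floor, the observed level was 1.20-fold higher in DNTCF4_EZH2 and 1.62-fold higher in DNTCF4_SET for DNTCF4, and 1.09-fold and 1.48-fold higher for Vector. These ratios take the few counts of DNTCF4_EZH2 and DNTCF4_SET as exact, so they are not lower bounds. Without replicate 3 DNTCF4_SET had no count. Thy1 did not pass the filter. In the edgeR test without a filter it was not called against DNTCF4 in DNTCF4_EZH2 (adjusted p = 0.333) or DNTCF4_SET (adjusted p = 0.228). Neither was it called against Vector (adjusted p = 0.204 and 0.157).

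Procr (ENSMUSG00000027611, chromosome 2, 155751117 to 155755471, plus strand) encodes the endothelial protein C receptor, which marks a multipotent fraction of mouse mammary cells. It stood at 133, 134 and 129 CPM in DNTCF4_EZH2, at 132, 132 and 133 CPM in DNTCF4_SET, at 160.2, 165 and 168 CPM in DNTCF4, and at 109, 109.7 and 108 CPM in Vector. The groups formed 3 levels without overlap, with DNTCF4 at the top, DNTCF4_EZH2 and DNTCF4_SET together in the middle and Vector at the bottom. Procr rose 1.51-fold in DNTCF4 against Vector (log2 0.59, SE 0.033, adjusted p = 6.82e-10). Against DNTCF4 it fell 1.24-fold with EZH2 (log2 -0.31, SE 0.032, adjusted p = 4.99e-06) and 1.24-fold with SET (log2 -0.31, SE 0.033, adjusted p = 6.96e-06). DNTCF4_EZH2 and DNTCF4_SET differed by -0.00 (95% interval -0.07 to 0.07). Procr was still 1.21-fold above Vector in DNTCF4_EZH2 (adjusted p = 3.58e-06) and in DNTCF4_SET (adjusted p = 3.24e-06). In these 5 comparisons with a call, Procr was called under each of the 13 alternative settings.

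Procr and thrombomodulin act together in activating protein C on endothelium, and Thbd, the thrombomodulin gene, was on the list of ligands and partners of the members. It stood at 579 ± 15.3 CPM in DNTCF4 against 137 ± 3.68 CPM in Vector, a 4.23-fold rise (adjusted p = 7.08e-16). In DNTCF4_SET it rose a further 1.21-fold to 699.7 ± 13.3 CPM (adjusted p = 2.57e-05), and in DNTCF4_EZH2 it stood at 598 ± 7.88 CPM (adjusted p = 0.349 against DNTCF4). Procr and Thbd were both higher in DNTCF4 than in Vector, while with SET Procr fell and Thbd rose. The 6 endothelial markers summed to 4.28 to 5.36 CPM in DNTCF4_EZH2, 5.64 to 7.23 CPM in DNTCF4_SET, 5.83 to 7.20 CPM in DNTCF4 and 3.35 to 4.62 CPM in Vector. Cdh5, Kdr and Vwf averaged 2.09, 0.634 and 3.05 CPM in DNTCF4 against 1.06, 0.191 and 1.71 CPM in Vector, which is the direction of Procr. Pecam1 averaged 0.695 CPM in DNTCF4 against 0.812 CPM in Vector, and Emcn 0 CPM against 0.192 CPM, which is the other direction. Emcn had at most 7 counts in a library and Tek at most 2. The part of these transcripts in the Procr result was not tested.

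Prom1 (ENSMUSG00000029086, chromosome 5, 43993620 to 44102032, minus strand) encodes CD133, a pentaspan protein of membrane protrusions, and its RNA was scarce. It had 5, 5 and 5 counts in DNTCF4_EZH2, 10, 10 and 15 in DNTCF4_SET, 7, 8 and 10 in DNTCF4, and 0, 1 and 0 in Vector. Every library with DNTCF4 held more than every Vector library. The ratio of pooled counts per library size was 22.8 for DNTCF4 over Vector (95% interval 3.73 to 936), with 25 counts against 1. It was 12.3 for DNTCF4_EZH2 over Vector (1.89 to 518) and 31.0 for DNTCF4_SET over Vector (5.21 to 1258). These intervals cover counting error only. The edgeR test gave its own estimates against Vector: 17.3-fold higher in DNTCF4 (log2 4.12, 95% interval 2.56 to 5.67, adjusted p = 0.000187). They were 9.46-fold in DNTCF4_EZH2 (log2 3.24, 1.51 to 4.97, adjusted p = 0.00306) and 23.4-fold in DNTCF4_SET (log2 4.55, 3.08 to 6.01, adjusted p = 4.10e-05). DNTCF4_EZH2 lay below DNTCF4 by a log2 change of -0.87 (95% interval -1.80 to 0.05, adjusted p = 0.157), with no overlap of their libraries, and DNTCF4_SET overlapped DNTCF4 (log2 0.43, -0.37 to 1.23). The antisense gene Gm16401 shares 424 exon bases with Prom1. It had 0 to 3 counts in a library, and the sources used here do not say whether reads were counted by strand.

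Kit (ENSMUSG00000005672, chromosome 5, 75574916 to 75656722, plus strand), the receptor for stem cell factor, had 1, 1 and 1 counts in DNTCF4_EZH2, 2, 4 and 1 in DNTCF4_SET, 0 in all libraries of DNTCF4, and 3, 9 and 2 in Vector. The order of the sums was Vector, DNTCF4_SET, DNTCF4_EZH2 and DNTCF4. Taking 3 counts over the DNTCF4 group as the floor and the Vector counts as exact, Kit was at least 5.12-fold lower in DNTCF4 than in Vector. Without Vector replicate 2, which held 9 of the 14 Vector counts, it was at least 2.81-fold lower. Olfactory and vomeronasal receptor genes, normally silent outside sensory tissue, moved in the same order. Of 1768 such genes, 235 to 306 had a count in a DNTCF4_EZH2 library, 314 to 464 in a DNTCF4_SET library, 69 to 80 in a DNTCF4 library and 538 to 750 in a Vector library, with the most in Vector replicate 2. The part of such scattered reads in the Kit counts was not tested. Of 5 markers of mast cells, which carry much KIT, Cpa3, Tpsb2, Mcpt4 and Fcer1a had no count in any library and Ms4a2 had 2 to 14.

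Ngfr (ENSMUSG00000000120, chromosome 11, 95568818 to 95587735, minus strand) encodes the low-affinity neurotrophin receptor CD271. It stood at 2.40, 2.38 and 3.00 CPM in DNTCF4_EZH2, at 2.76, 3.09 and 2.67 CPM in DNTCF4_SET, at 2.78, 3.60 and 2.64 CPM in DNTCF4, and at 0.490, 0.666 and 0.587 CPM in Vector. The 9 libraries with DNTCF4 overlapped each other and all lay above Vector. Ngfr rose 5.17-fold in DNTCF4 (log2 2.37, SE 0.20, adjusted p = 9.53e-08), 4.43-fold in DNTCF4_EZH2 (adjusted p = 3.10e-07) and 4.84-fold in DNTCF4_SET (adjusted p = 1.50e-07), each against Vector. Against DNTCF4 the log2 changes were -0.22 with EZH2 (95% interval -0.55 to 0.10) and -0.09 with SET (-0.42 to 0.23). The 4 markers of Schwann and neural crest cells, which also carry Ngfr, summed to 1.73 to 2.22 CPM in DNTCF4_EZH2, 2.29 to 2.37 CPM in DNTCF4_SET, 1.66 to 2.05 CPM in DNTCF4 and 1.85 to 2.63 CPM in Vector, so their sums were not higher in DNTCF4 than in Vector. The 4 markers of basal cells, another type that carries Ngfr, summed to 4.70 to 6.30 CPM in DNTCF4_EZH2, 3.85 to 5.04 CPM in DNTCF4_SET, 3.04 to 3.62 CPM in DNTCF4 and 9.48 to 10.2 CPM in Vector. Their members moved apart, with Trp63 at 0.883 CPM in DNTCF4 against 8.33 CPM in Vector and Krt17 at 2.37 CPM in DNTCF4 against 1.27 CPM in Vector. The part of such transcripts in the Ngfr result was not tested.

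Ligands and partners of the members were counted from a list of 26, of which 19 passed the filter. In DNTCF4 against Vector 6 rose and 8 fell (median log2 -0.07), beside 29.5% of all genes called higher and 28.0% called lower. Besides Thbd, Maged1, an adaptor that binds the neurotrophin receptor, rose 2.08-fold to 892 ± 26.3 CPM in DNTCF4 against 428 ± 9.57 CPM in Vector (adjusted p = 7.65e-13). Bdnf, a neurotrophin, fell 2.54-fold in DNTCF4 against Vector (log2 -1.35, SE 0.063, adjusted p = 7.70e-11). With EZH2, 5 were called against DNTCF4, each of them higher (median 0.07). That number is near the 25.5% of all genes called, of which 13.0% were called higher and 12.5% lower. Among the 5 was Has1, a hyaluronan synthase and so a source of the CD44 ligand. Has1 stood at 2.84 ± 0.245 CPM in DNTCF4_EZH2 against 1.55 ± 0.107 CPM in DNTCF4 (adjusted p = 0.000701). Siglecg, a lectin that binds CD24, rose 1.18-fold (adjusted p = 0.00229). F2r, the thrombin receptor that activated protein C can also cleave, rose 1.10-fold, a call lost without DNTCF4_EZH2 replicate 2 (adjusted p = 0.0713) or replicate 3 (adjusted p = 0.0601). The count of 5 became 8 without DNTCF4 replicate 1, 3 without DNTCF4 replicate 3 or DNTCF4_EZH2 replicate 2, and 2 without DNTCF4_EZH2 replicate 3. With SET, 5 rose and 2 fell against DNTCF4 (median 0.13), beside 12.7% of all genes called higher and 13.3% called lower. The calls were 4 in all without DNTCF4_SET replicate 2. Sort1, the sortilin co-receptor for pro-neurotrophins, rose 2.92-fold to 3.05 ± 0.364 CPM in DNTCF4_SET against 1.03 ± 0.320 CPM in DNTCF4 (adjusted p = 0.000179), and Ezr, which links CD44 to actin, fell 1.12-fold (adjusted p = 0.00522).

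Aldh1a1 and Aldh1a3 encode cytosolic retinaldehyde dehydrogenases that make retinoic acid, and they moved in opposite directions. Aldh1a1 (ENSMUSG00000053279, chromosome 19, 20492715 to 20643465, plus strand) had 0.205, 0.392 and 0.270 CPM in DNTCF4_EZH2, 0.215, 0.226 and 0.0911 CPM in DNTCF4_SET, 0.153, 0.191 and 0.147 CPM in DNTCF4, and 1.66, 1.52 and 1.76 CPM in Vector. The Vector values rest on 41 to 44 counts a library and those of DNTCF4 on 4 to 6. Every library with DNTCF4 lay far below Vector. Aldh1a1 fell 9.75-fold in DNTCF4 (log2 -3.29, SE 0.34, adjusted p = 7.36e-07), 5.66-fold in DNTCF4_EZH2 (adjusted p = 3.96e-06) and 9.32-fold in DNTCF4_SET (adjusted p = 7.74e-07), each against Vector. DNTCF4_EZH2 lay 0.79 above DNTCF4 on the log2 scale without passing the test (95% interval -0.11 to 1.68, adjusted p = 0.200), and DNTCF4_SET overlapped DNTCF4 (log2 0.07, -0.94 to 1.07). The receptor genes named with Kit also had counts most often in Vector (538 to 750 genes a library) and least often in DNTCF4 (69 to 80). They had counts more often in DNTCF4_SET (314 to 464) than in DNTCF4_EZH2 (235 to 306). Aldh1a1 went the other way there, at 0.177 CPM in DNTCF4_SET and 0.289 CPM in DNTCF4_EZH2. The part of these receptor genes in the Aldh1a1 result was not tested.

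Aldh1a3 (ENSMUSG00000015134, chromosome 7, 66390890 to 66427517, minus strand) stood at 5.66, 5.52 and 5.56 CPM in DNTCF4_EZH2, at 5.15, 5.23 and 4.70 CPM in DNTCF4_SET, at 4.19, 3.98 and 3.08 CPM in DNTCF4, and at 2.37, 2.00 and 2.64 CPM in Vector. The 4 groups did not overlap, and their order was DNTCF4_EZH2, DNTCF4_SET, DNTCF4 and Vector. Aldh1a3 rose 1.61-fold in DNTCF4 against Vector (log2 0.69, SE 0.14, adjusted p = 0.000555). It was higher again against DNTCF4 with EZH2, by 1.49-fold (log2 0.57, SE 0.12, adjusted p = 0.00245), and with SET, by 1.34-fold (log2 0.42, SE 0.12, adjusted p = 0.0196). The call with SET was lost without DNTCF4 replicate 3 (log2 0.30, adjusted p = 0.0888), DNTCF4_SET replicate 1 (adjusted p = 0.0630) or DNTCF4_SET replicate 2 (adjusted p = 0.0662). DNTCF4_EZH2 and DNTCF4_SET differed by 0.15 (95% interval -0.09 to 0.40, adjusted p = 0.517), which was not called although their libraries did not overlap.

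DNTCF4 and Vector differed in the makeup of the pair more than in its sum. Aldh1a1 made up 3.28% to 6.23% of the summed level per kilobase of Aldh1a1 and Aldh1a3 in DNTCF4_EZH2, 1.78% to 3.88% in DNTCF4_SET, 3.29% to 4.30% in DNTCF4 and 38.4% to 41.5% in Vector. The sum itself was 1.27 ± 0.00815 CPM per kilobase in DNTCF4_EZH2, 1.13 ± 0.0766 in DNTCF4_SET, 0.846 ± 0.131 in DNTCF4 and 0.840 ± 0.0951 in Vector (SD, n = 3 each). DNTCF4 and Vector overlapped in the sum and not in the share. No test was made of the sum or the share. The share restates the changes of Aldh1a1 and Aldh1a3, and in DNTCF4 it rests on 4 to 6 Aldh1a1 counts a library.

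**Figure D4:**
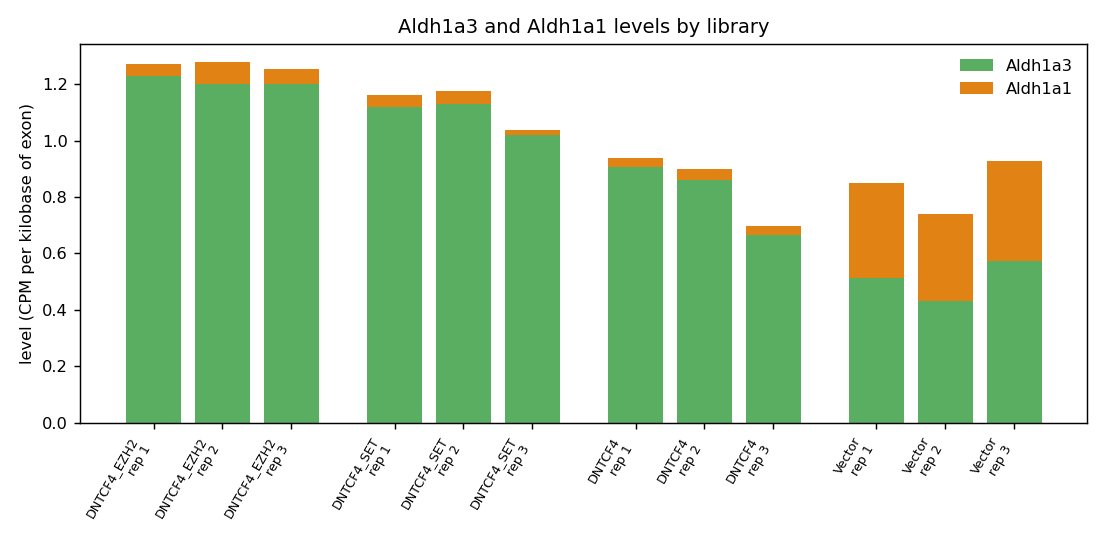
Level in CPM per kilobase of exon (vertical axis) of Aldh1a3 (green) and Aldh1a1 (orange, stacked on it) in each of the 12 libraries. Aldh1a1 takes 38.4% to 41.5% of the bar in Vector and at most 6.23% in the libraries with DNTCF4.

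Aldh1a1 was the tested member with the largest fall and Ngfr, apart from Prom1 with its 1 Vector count, the one with the largest rise, so their promoters are shown: the 250 bases before a RefSeq start site (build GRCm38.p6), 5′ to 3′ along the gene's strand. The Aldh1a1 window is chr19:20492333-20492582, plus strand, and the Ngfr window is chr11:95587699-95587948, minus strand. Capitals mark the TCF/LEF core motif CTTTGA, or its reverse complement TCAAAG, which was searched on both strands.
Aldh1a1: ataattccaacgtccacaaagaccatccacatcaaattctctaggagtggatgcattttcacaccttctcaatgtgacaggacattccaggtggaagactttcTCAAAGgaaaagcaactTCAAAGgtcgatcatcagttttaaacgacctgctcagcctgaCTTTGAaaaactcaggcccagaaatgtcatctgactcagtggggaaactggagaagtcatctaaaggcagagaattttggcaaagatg
Ngfr: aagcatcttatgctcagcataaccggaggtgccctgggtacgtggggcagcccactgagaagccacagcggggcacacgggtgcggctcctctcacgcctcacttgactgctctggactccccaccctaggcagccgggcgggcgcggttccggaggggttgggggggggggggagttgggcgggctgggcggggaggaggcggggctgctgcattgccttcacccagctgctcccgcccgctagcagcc
The Aldh1a1 window holds 3 copies. They span the bases from 147 to 142 and from 130 to 125 before the start site on the opposite strand, and from 88 to 83 on the gene's strand. Among 32851 RefSeq promoters, 13.8% held the motif and 0.1% (33 promoters) held 3 or more copies. The number 3 is the one found in Aldh1a1, a gene picked for its fall in these data, so that share is no test. The promoters were not matched for base content, and G and C made up 42.8% of the Aldh1a1 window and 70.4% of the Ngfr window. The Ngfr window held none, and neither did the listed promoters of Cd44, Prom1, Procr and Kit or the second Aldh1a1 start. The STAT motif GAS, spelled TTCNNNGAA, and the interferon motif ISRE, spelled GAAA, then 2 bases of any kind, then GAAA, were searched as well and were found in none of the 9 windows, against 7.02% and 2.98% of all promoters. A match is a string of letters and not a measured binding site.

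**Figure D5:**
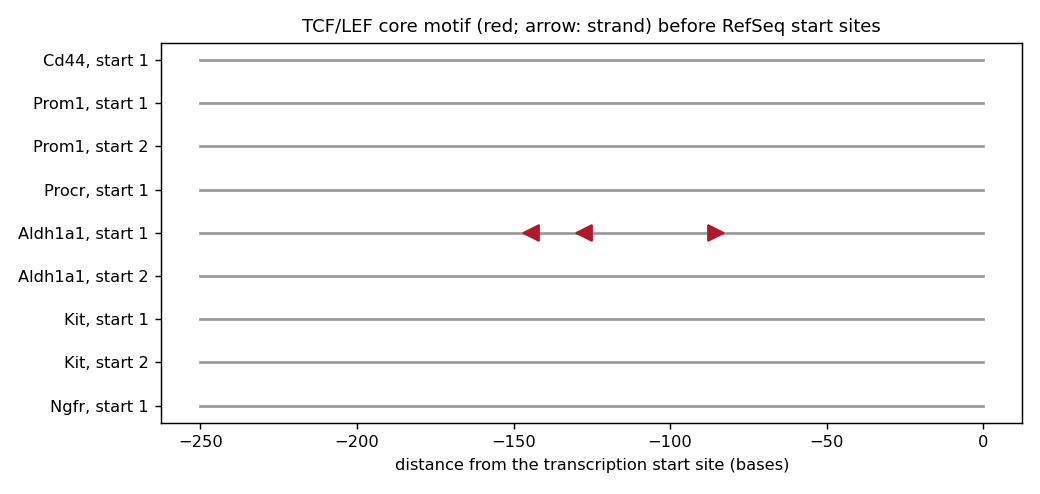
Positions of the TCF/LEF core motif (red arrows, pointing along the strand of the match) in the 250 bases before each of 9 RefSeq start sites of 6 members; the horizontal axis is the distance from the start site in bases. The motif occurs in the window of the first Aldh1a1 start, 3 times.

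Other aldehyde dehydrogenases were counted from a list of 18, of which 13 passed the filter. In DNTCF4 against Vector 1 rose and 7 fell, beside 29.5% of all genes called higher and 28.0% called lower. The median log2 change was -0.18 against 0.01 over all genes. Aldh3a1, which oxidises aromatic and lipid-derived aldehydes, had 23.4 CPM in DNTCF4 and 74.4 CPM in Vector, a 3.18-fold fall (log2 -1.67, SE 0.053, adjusted p = 9.02e-13). Aldh2, the mitochondrial enzyme of acetaldehyde oxidation, had 925 ± 80.2 CPM in DNTCF4 and 1396 ± 45.2 CPM in Vector, a 1.51-fold fall (adjusted p = 1.89e-07). Aldh9a1, which acts on aminobutyraldehyde, rose (log2 0.58, SE 0.037, adjusted p = 3.19e-09). With EZH2, 6 rose and 1 fell against DNTCF4 (median 0.16), beside 13.0% of all genes called higher and 12.5% called lower. The calls were 2 in all without DNTCF4_EZH2 replicate 2 and 4 without its replicate 3. Aldh3a1 rose 1.20-fold to 28.1 ± 0.776 CPM (adjusted p = 0.00228), while the calls of Aldh7a1 (1.12-fold) and Aldh2 (1.14-fold) were lost without DNTCF4_EZH2 replicate 2 (adjusted p = 0.0532 and 0.0531), and that of Aldh2 without replicate 3 too (adjusted p = 0.0651). With SET 1 rose, Aldh3b2 at 1.37-fold (adjusted p = 0.0178), and 1 fell, Aldh3a2 at 1.11-fold (adjusted p = 0.0289), with a median of 0.10. The shares of all genes called with SET were 12.7% higher and 13.3% lower. Aldh3b2 missed the threshold once DNTCF4 replicate 3 (adjusted p = 0.0806) or DNTCF4_SET replicate 2 (adjusted p = 0.0646) was left out. The Aldh3a2 call held in 6 of 13 alternatives and was lost without DNTCF4 replicate 3 (adjusted p = 0.0573) or any DNTCF4_SET replicate (0.0622 to 0.0867), by the DESeq2 Wald test (adjusted p = 0.0740), without a filter (adjusted p = 0.0727) and with the 6 libraries fitted alone (adjusted p = 0.0876). The count of 2 was 1 without DNTCF4 replicate 3, DNTCF4_SET replicate 1 or DNTCF4_SET replicate 3, and 0 without DNTCF4_SET replicate 2.

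Genes of retinoid metabolism and its receptors, which stand upstream and downstream of these enzymes, were counted from a list of 20, of which 15 were tested. In DNTCF4 against Vector 5 rose and 4 fell, with a median of 0.04, near the 29.5% of all genes called higher and 28.0% called lower. Crabp2, which carries retinoic acid to its nuclear receptors, had 64.9 ± 4.37 CPM in DNTCF4 and 145 ± 4.84 CPM in Vector, a 2.23-fold fall (adjusted p = 1.17e-11), and Dhrs9, a retinol dehydrogenase, fell 1.80-fold (adjusted p = 2.49e-10). Fabp5, which carries fatty acids and retinoic acid, rose 1.61-fold to 101 ± 4.38 CPM in DNTCF4 against 62.8 ± 1.00 CPM in Vector (adjusted p = 1.16e-09). Against DNTCF4, Crabp2 rose 1.29-fold with EZH2 to 83.6 ± 0.259 CPM (adjusted p = 3.66e-05) and 1.23-fold with SET to 80.0 ± 1.06 CPM (adjusted p = 0.000230). Fabp5 rose 1.32-fold with EZH2 (adjusted p = 2.12e-06) and 1.37-fold with SET (adjusted p = 8.82e-07). Crabp2 and Fabp5 kept these calls under the 13 alternative settings. The list gave 5 rises and 4 falls with EZH2 (median 0.05), but 3 to 5 calls in all without DNTCF4 replicate 2, DNTCF4 replicate 3 or any DNTCF4_EZH2 replicate. It gave 5 rises and 1 fall with SET (median -0.02), 10 calls without DNTCF4 replicate 1, and 3 without DNTCF4 replicate 3, DNTCF4_SET replicate 2 or DNTCF4_SET replicate 3. The shares of all genes were 13.0% called higher and 12.5% lower with EZH2, and 12.7% and 13.3% with SET.

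Of other genes used to mark breast cancer or mammary stem cells, 17 were tested among 24 listed. In DNTCF4 against Vector 5 rose and 6 fell (median 0.04), also near those shares of all genes. The integrin gene Itgb3 rose 3.98-fold to 114 ± 2.57 CPM in DNTCF4 against 28.8 ± 1.31 CPM in Vector (adjusted p = 7.60e-15), and Cd200, an immune-inhibitory ligand, rose 2.81-fold (adjusted p = 5.73e-10). The hepatocyte growth factor receptor gene Met fell by 2.00 on the log2 scale, to 124 ± 10.2 CPM in DNTCF4 against 494 ± 10.4 CPM in Vector (adjusted p = 3.91e-14). With EZH2, 4 rose and 4 fell against DNTCF4, of which Klf4 fell 1.14-fold, Epcam rose 3.00-fold from a low level (0.679 ± 0.0371 CPM in DNTCF4_EZH2, 0.223 ± 0.101 CPM in DNTCF4) and Itgb3 rose 1.10-fold. Each of these calls was lost without some library: Klf4 without DNTCF4_EZH2 replicate 1 (adjusted p = 0.0622), Epcam without DNTCF4 replicate 3 (adjusted p = 0.0619), and Itgb3 without DNTCF4_EZH2 replicate 2 (adjusted p = 0.0607) or replicate 3 (adjusted p = 0.0508). The count of 8 was 3 to 5 without DNTCF4 replicate 3 or any DNTCF4_EZH2 replicate. With SET, 3 rose and 2 fell, 8 in all without DNTCF4 replicate 1 and 3 without DNTCF4 replicate 3 or DNTCF4_SET replicate 2. The shares of all genes were 13.0% called higher and 12.5% lower with EZH2, and 12.7% and 13.3% with SET. Snai2, an epithelial-mesenchymal transition factor, fell 1.18-fold (adjusted p = 0.00552), Met rose 1.15-fold (adjusted p = 0.00623) and Epcam, an epithelial adhesion gene, rose 3.31-fold (adjusted p = 0.00855).

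For each tested member the tested genes with the most similar log2 CPM over the 12 libraries were ranked by Pearson r, as a description over libraries that share 4 groups. Ly6a was most like Csf1 (r = 0.992), Aldh3a1 (0.990) and Fzd1 (0.990), and Ngfr most like Pdgfa, Rgs3 and Coro2a (0.991 each). Ly6a had 403 genes with r above 0.95 and Ngfr 578. Aldh1a1 was most like Klk10 (0.989), Zfp365 (0.987) and Nudt9 (0.984), with 249 genes above 0.95. Procr, with its 3 levels, was most like Zfand2a (0.983), Mafg (0.982) and Zbtb21 (0.977), and Aldh1a3 most like Hmgb2 (0.985), Egfl7 (0.980) and Cep19. Prom1 was most like Irak3 (0.983), Tbc1d9 (0.977) and Dnm3 (0.976), and Cd44 most like Emp3 (0.974), Vps53 (0.973) and Fos (0.969). Cd24a had no gene above 0.95, and Maoa (0.926), Tigd2 (0.925) and Elovl5 (0.923) were nearest to it. No member was among the 3 nearest genes of another.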

How the data were processed

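RNA-seq of 12 libraries (4 groups of 3, by title) was used. The submitters' processing notes name STAR 2.7.8a, RSEM 1.3.3, cutadapt 2.3, FastQC 0.11.8 and DESeq2, and the build GRCm38. The authors deposited expected counts per gene, which RSEM estimates by sharing out reads that map to several genes; all values were whole, so rounding changed nothing. They also deposited rlog values (regularised log2 counts) for 21754 genes. The sources used here do not say whether reads were counted by strand.

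Genes were kept with filterByExpr (minimum count 10, minimum total 15), which left 15052 of 55492. EdgeR 4.0.16 in R 4.3.3 was fitted to all 12 libraries with TMM scaling (factors 0.985 to 1.01) and 1 mean per group, with a two-sided quasi-likelihood test, 8 residual degrees of freedom and Benjamini-Hochberg adjustment (threshold 0.05). A value of 0 in a library lies under 0.0880 to 0.126 CPM (3 counts); intervals are at 95%. Positions and exon lengths came from GENCODE (GRCm38). Promoters came from RefSeq, where 6 of the 10 members matched.

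The members and the 5 gene lists were chosen with earlier results of these data known. Named list genes are the called ones among the 3 smallest p-values of a list in each comparison. A gene that this rule names is not reported here. Alternatives were DESeq2 size factors, the DESeq2 1.42.0 Wald test, limma 3.58.1 on the rlog values, no filter, a mean of at least 1 CPM, the 6 libraries compared alone, a replicate block, and each library left out in turn.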

Additional observations from a re-analysis of the deposited data

Results flagged for a closer look

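Ly6a differed between the EZH2 and SET groups. DNTCF4_EZH2 exceeded DNTCF4_SET by a log2 difference of 0.18 (edgeR's quasi-likelihood test of the difference, adjusted p = 0.0104). Ly6a had 62.4 ± 2.21 CPM in DNTCF4_EZH2 and 54.9 ± 0.549 CPM in DNTCF4_SET (SD, n = 3 each), with no overlap of their libraries. The call was lost without DNTCF4_EZH2 replicate 1 (adjusted p = 0.0621). By the same test Tcf7l2 was higher in DNTCF4_EZH2 than in DNTCF4_SET (adjusted p = 0.0350) and Ezh2 lower (adjusted p = 0.00300). Their part in the Ly6a result was not tested.

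Prom1 lay below the DNTCF4 mean in 3 of 3 DNTCF4_EZH2 libraries. It lay on that mean's other side in all DNTCF4_SET libraries but rested on 5 to 15 counts a library. The log2 difference between DNTCF4_EZH2 and DNTCF4_SET was -1.30 and did not pass the test of the difference (adjusted p = 0.0834).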

How the results depend on the processing

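Of 321 values of single members under the alternatives other than leaving out a library, 306 kept their direction and side of the threshold, as did 271 of 288 with 1 library left out. The number of members called was 7 in each of the 3 comparisons with Vector under every left-out library, and 5 to 8 under the other alternatives. With 1 library left out it was 2 to 3 for DNTCF4_EZH2 against DNTCF4 and 2 to 4 for DNTCF4_SET against DNTCF4. For DNTCF4_EZH2 against DNTCF4_SET it was 0 to 1, and 0 without DNTCF4_EZH2 replicate 1. With the 6 libraries compared alone, DNTCF4_SET against DNTCF4 called 1 member, Procr, in place of 3; the cause was not tested. Directions that turned belonged to values near 0 without a call. With 1 library left out, Cd24a in DNTCF4 against Vector ranged from -0.08 to 0.04, Ly6a in DNTCF4_EZH2 against DNTCF4 from 0.00 to 0.05, Aldh1a1 and Ngfr in DNTCF4_SET against DNTCF4 from -0.14 to 0.41 and from -0.18 to 0.06, and Cd24a and Procr in DNTCF4_EZH2 against DNTCF4_SET from -0.05 to 0.02 and from -0.01 to 0.01. Without a filter the last, Procr, was 0.01.

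Cd24a passed the threshold in DNTCF4_SET against Vector in 5 and against DNTCF4 in 5 of 13 alternatives (log2 0.07 to 0.14 and 0.08 to 0.20), and in DNTCF4_EZH2 against Vector in 2. Prom1 in DNTCF4_EZH2 against Vector did not pass on rlog values (adjusted p = 0.0737), which shrink low counts. Without a filter Kit was called lower in DNTCF4 than in Vector (adjusted p = 0.00290). Genes called in DNTCF4_EZH2 against DNTCF4_SET numbered 777, 2132 with the 6 libraries alone, and 374 to 460 with 1 left out; DNTCF4_SET against DNTCF4 gave 3914 and, with 6 libraries, 2548. Among list counts, that of ligands and partners in DNTCF4_EZH2 against DNTCF4_SET moved by over 1.5 times in the most alternatives, 10 (1 to 4, 2 here). Against DNTCF4, list counts ran over all alternatives from 3 to 11 (stem cell genes, 8 here), 2 to 7 (aldehyde dehydrogenases, 7), 3 to 10 (retinoid genes, 9) and 2 to 8 (partners, 5) with EZH2, and from 3 to 8, 0 to 4, 3 to 10 and 4 to 8 with SET (5, 2, 6 and 7 here).

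Replicate numbers did not pair the libraries: 1 of 18 same-number correlations exceeded 0.1, and 4 of 12 libraries correlated best with their own number. With the replicate block the members called were 7, 2, 3, 1, 7 and 7 in the 6 comparisons, as without it. Low counts limit Prom1, Thy1, Kit and Aldh1a1.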
